A study of Mus musculus with 50 samples.

Results

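The 9 genes described here, Clec4f, Timd4, Vsig4, Cd5l, Marco, Folr2, Cd163, Adgre1 and Csf1r, are commonly used to recognise resident Kupffer cells, the macrophages of the liver sinusoids. They were taken by symbol from a table of raw RNA-seq counts with 45792 rows, in which each has 1 row. The libraries came from C3H/He mice, a strain prone to liver tumours, harvested at 48 weeks. The study describes male mice without DEN, and the sex of the DEN treated mice is not given in the sources used here. Mice were fed a control diet or the ALIOS (American lifestyle) diet, which is rich in fat, including trans fat, and comes with fructose in the drinking water. N1 to N12 are 12 pieces of non-tumour liver from control fed mice, and N13 to N23 are 11 such pieces from ALIOS fed mice. They are called livers below, although the study reports that some of these mice bore tumours. There were 12 spontaneous tumours on the ALIOS diet (T2 to T6 and T8 to T14), and 1 spontaneous tumour on the control diet (T7). Tumours of mice given diethylnitrosamine (DEN), a liver carcinogen, made up 8 libraries on the ALIOS diet (T15, T16 and T22 to T27) and 5 on the control diet (T17 to T21). No non-tumour liver of DEN treated mice was analysed here, so DEN tumours were set against livers of mice without DEN. Whole pieces of tissue were sequenced, and the labels do not tie tumours to mice. By the study's description, the spontaneous tumours came from different mice. No such description was found for the DEN tumours, so several of them may share an animal. The p-values below measure the spread between libraries. DEN was given alongside the diets at a dose and time that these sources do not state.

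Kupffer cells are seeded before birth and renew themselves locally under signals from endothelial, stellate and liver parenchymal cells. When resident cells are lost, monocytes from the blood can enter the empty niche and slowly take on the same profile, with Timd4 among the last genes to appear. Some of the 9 genes are close to specific for resident cells in the liver. Clec4f encodes a lectin, Timd4 a phosphatidylserine receptor for dying cells, Vsig4 a complement receptor that catches blood-borne bacteria, and Cd5l a secreted scavenger protein. Marco encodes a scavenger receptor for bacteria and particles, Folr2 a folate receptor and Cd163 the receptor for haemoglobin bound to haptoglobin. Adgre1 encodes the F4/80 antigen and Csf1r the receptor for the growth factors CSF1 and IL-34. Both are found on most mouse macrophages, resident or recruited.

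Depth ranged from 23798251 to 45751398 counted reads per library. The library labelled T1, an ALIOS diet tumour, was left out, because its 3 kidney markers summed to 42080 counts in 1000000 (CPM) against at most 5.64 in the other 49 libraries. In T1 Vsig4 and Marco had no read and Clec4f stood at 0.0667 CPM, although Csf1r stood at 43.8 CPM. In the remaining livers and tumours, 8 hepatocyte markers summed to between 79040 and 229400 CPM, so all held hepatocyte RNA. In tumours this sum does not tell liver parenchyma from tumour cells. CPM values are scaled by library size with edgeR's TMM factors.

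The promoters of genes whose levels moved most closely together across tumours, Timd4, Vsig4 and Cd5l, are shown beside that of Cd163, whose level followed theirs least closely (correlations below). Each sequence is the 250 bases before the RefSeq start of the gene on GRCm38.p6, read 5′ to 3′ on the strand of the gene. Capitals mark matches on either strand to GAGGAA, a core bound by PU.1 and other ETS factors, to TGCTGA, the core of MAF factor sites, and to AGGTCA, a nuclear receptor half-site.
Timd4, chr11:46810549-46810798, plus strand: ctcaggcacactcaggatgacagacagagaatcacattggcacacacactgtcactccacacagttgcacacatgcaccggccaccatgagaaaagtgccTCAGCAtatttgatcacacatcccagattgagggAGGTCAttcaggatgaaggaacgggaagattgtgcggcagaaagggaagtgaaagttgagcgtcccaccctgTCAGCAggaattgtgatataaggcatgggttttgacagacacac
Vsig4, chrX:96293439-96293688, minus strand: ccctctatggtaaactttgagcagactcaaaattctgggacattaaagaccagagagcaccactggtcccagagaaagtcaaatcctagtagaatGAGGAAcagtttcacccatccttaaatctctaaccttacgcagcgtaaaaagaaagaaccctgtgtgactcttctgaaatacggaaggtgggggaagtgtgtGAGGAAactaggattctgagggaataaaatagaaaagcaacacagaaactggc
Cd5l, chr3:87357631-87357880, plus strand: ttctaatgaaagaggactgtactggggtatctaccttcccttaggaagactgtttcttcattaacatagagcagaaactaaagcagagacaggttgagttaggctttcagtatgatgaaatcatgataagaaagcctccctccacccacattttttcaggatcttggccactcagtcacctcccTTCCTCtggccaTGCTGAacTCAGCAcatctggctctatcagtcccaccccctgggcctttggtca
Cd163, chr6:124304401-124304650, plus strand: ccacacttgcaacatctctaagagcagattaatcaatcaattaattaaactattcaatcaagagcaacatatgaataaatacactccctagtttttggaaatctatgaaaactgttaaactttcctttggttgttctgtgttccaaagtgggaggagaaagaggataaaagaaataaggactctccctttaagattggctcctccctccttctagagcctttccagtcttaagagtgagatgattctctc
Timd4 held TGCTGA at 2 places and AGGTCA at 1, Vsig4 held GAGGAA at 2 places, and Cd5l held GAGGAA at 1 place and TGCTGA at 2. None of these letters was found in the Cd163 window. Among all 32851 promoter windows of this length, 23.3% held GAGGAA, 16.1% held TGCTGA and 14% held AGGTCA. Of the 7 members with an entry, 3, 4 and 2 held them respectively. No match shown overlaps another. They are descriptions of letters and not of binding.

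The genes lie on 8 chromosomes. On GRCm38 with the Gencode M21 annotation, Clec4f spans chr6:83644542-83656187 and Cd163 chr6:124304656-124330527. Timd4 spans chr11:46810800-46844332, Vsig4 chrX:96247203-96293438, Cd5l chr3:87357881-87371073 and Marco chr1:120474538-120505024. Folr2 spans chr7:101839988-101857194, Adgre1 chr17:57358691-57483527 and Csf1r chr18:61100598-61132149. All are protein coding, and reads were counted on their exons. Exons of Folr2 share 975 of their 1546 bases with Gm10602, and those of Csf1r share 873 of 5774 bases with Hmgxb3. A part of their reads could thus be lost or misassigned, which also limits their levels per kilobase and their rank below.

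Cd5l and Clec4f were the most abundant members per length of exon. In control diet livers the median was 45.3 CPM per kilobase for Cd5l, 34.2 for Clec4f and 15.1 for Vsig4. Csf1r followed at 4.58, Timd4 at 3.86 and Adgre1 at 2.81. Marco at 1.11, Cd163 at 0.84 and Folr2 at 0.546 CPM per kilobase were the lowest. Each gene overlapped the next in this order between the lowest and highest livers. In ALIOS diet livers the order was the same except that Cd163, at 0.322 CPM per kilobase, came after Folr2, at 0.93.

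**Figure D1:**
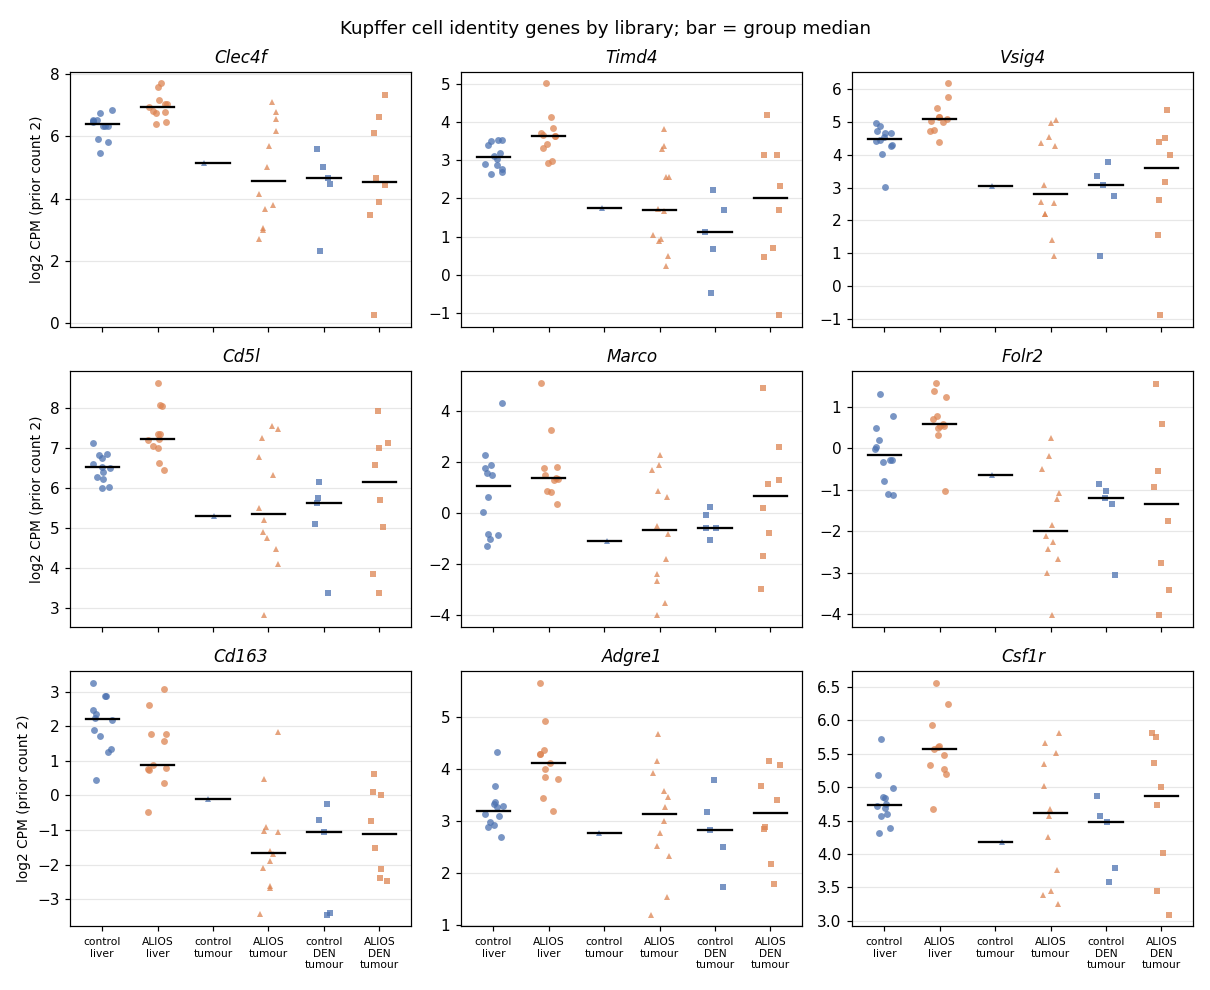
Level of each gene in 49 libraries, as log2 CPM with a prior count of 2, by group on the horizontal axis. Each point is a library and each bar the group median. Circles are livers, triangles spontaneous tumours and squares DEN tumours, with the control diet in blue and the ALIOS diet in orange. Tumour medians lie below the liver medians of their diet for every gene, although many single tumours overlap the livers. For most genes the tumours spread more widely than the livers, but not for Marco on the control diet.

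The first comparison asked whether the diet altered resident macrophage genes in non-tumour liver. 6 of the 9 genes rose in ALIOS fed mice, between 1.55-fold and 2.02-fold, namely Adgre1, Cd5l, Csf1r, Vsig4, Clec4f and Timd4. Over all genes tested, 6.73% were called higher (923 of 13723). The median log2 fold change was 0.73 over the members and -0.02 over all genes tested. A call is an adjusted p under 0.05 from the quasi-likelihood test of edgeR, where p-values were adjusted by the Benjamini-Hochberg method over every gene tested. In whole tissue, a change in the number of macrophages and a change in the RNA each one holds cannot be told apart.

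Adgre1 ranged from 6.39 to 20.0 CPM (median 9.10) in control diet livers and from 9.10 to 50.1 CPM (median 17.3) in ALIOS diet livers. Its log2 fold change was 1.01 ± 0.24 (SE, adjusted p = 0.01), and 10 of 11 livers on the ALIOS diet exceeded the median of the controls. Cd5l ranged from 64.7 to 140.2 CPM (median 92.3) on the control diet and from 87.5 to 395.0 CPM (median 150.1) on the ALIOS diet. The groups overlapped for both genes, with 7 of 11 ALIOS diet livers above every control for Cd5l and 3 of 11 for Adgre1. The log2 fold change of Cd5l was 0.94 ± 0.21 (adjusted p = 0.00764).

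Csf1r had medians of 26.5 CPM in control diet and 47.4 CPM in ALIOS diet livers, a log2 fold change of 0.81 ± 0.18 (adjusted p = 0.00823). Vsig4 ranged from 8.00 to 30.8 CPM (median 22.4) in controls and from 20.7 to 71.8 CPM (median 34.1) in ALIOS fed mice, a log2 fold change of 0.73 ± 0.19 (adjusted p = 0.0183). These are the growth factor receptor on which macrophages depend and the complement receptor, and for Vsig4 8 of 11 ALIOS diet livers exceeded every control. Clec4f ranged from 44.5 to 115.7 CPM (median 84.4) in controls and from 84.5 to 208.6 CPM (median 124.5) in ALIOS fed mice. All 11 livers on the ALIOS diet exceeded the median of the controls for Clec4f, with a log2 fold change of 0.64 ± 0.16 (adjusted p = 0.0121). Timd4 rose from a median of 8.39 to 12.5 CPM, with a log2 fold change of 0.64 ± 0.19 and the highest adjusted p of the 6 (0.0368). Its call was lost when any 1 of 9 livers was left out (N1, N2, N4, N5, N11, N12, N17, N18 and N19), with a log2 fold change of 0.42 without N19.

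Marco, Folr2 and Cd163 did not pass the test with diet. Marco had medians of 2.14 and 2.54 CPM and was highest in N6, at 19.8 CPM, and in N19, at 34.3 CPM. Its log2 fold change of 0.78 (95% interval -0.59 to 2.14) became -0.17 without N19. Folr2 had medians of 0.844 and 1.44 CPM, with a log2 fold change of 0.70 ± 0.29 (adjusted p = 0.108). It was called when either N7 or N16 was left out (adjusted p down to 0.0346). Cd163 had a median of 4.59 CPM in control diet livers and 1.76 CPM in ALIOS diet livers, and 9 of 11 ALIOS diet livers lay below the control median. Its log2 fold change was -0.70 (95% interval -1.43 to 0.04, adjusted p = 0.194).

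N19 was the highest ALIOS diet liver for 8 of the 9 genes, and N13 the lowest for 6. Without N6 and N19 together, an alternative added after the data were seen, 5 genes were still called and Timd4 was not (adjusted p = 0.0518). The 6 calls were all lost when the 6 groups were fitted together, with adjusted p between 0.0502 for Adgre1 and 0.499 for Clec4f, with log2 fold changes of the 6 genes from 0.65 for Timd4 to 1.03 for Adgre1. In that fit the spread is estimated over the tumours as well.

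Genes of macrophages in general moved with the diet too. Of 16 such genes, 13 rose and none fell, among them C1qb (log2 fold change 0.90), C1qa (0.83), C1qc (0.80), which encode the chains of complement C1q, and Cd68 (0.79), a lysosomal glycoprotein. The summed level of these 16 genes had a median of 410.3 CPM on the control diet and 715.9 CPM on the ALIOS diet. Of the 2 CSF1R ligands, Il34 rose (log2 fold change 0.80 ± 0.17, adjusted p = 0.00696) and Csf1 did not pass the test (0.26 ± 0.15, adjusted p = 0.267). Of 7 monocyte and recruited macrophage genes tested, Itgax (2.59), the integrin CD11c, and Cx3cr1 (1.45), a chemokine receptor, rose. Among 8 transcription factors of Kupffer cells, Spi1, which encodes PU.1, rose (0.92, adjusted p = 0.0147). The other 7 did not pass. Of 8 lipid-associated macrophage genes, 4 rose and 0 fell, with a median log2 fold change of 1.19 over the 8. Of 8 niche signals 2 rose, of 11 other Kupffer enriched genes tested 2 rose, and of 8 stellate cell genes 1 rose, with none lower. The neutrophil, B cell, dendritic cell, hepatocyte and sinusoidal endothelial lists had no member called, and Cd3e and Cd3g of the T cell list rose (1.84 and 1.82). The part of these cell types in the members' rise was not tested.

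**Figure D2:**
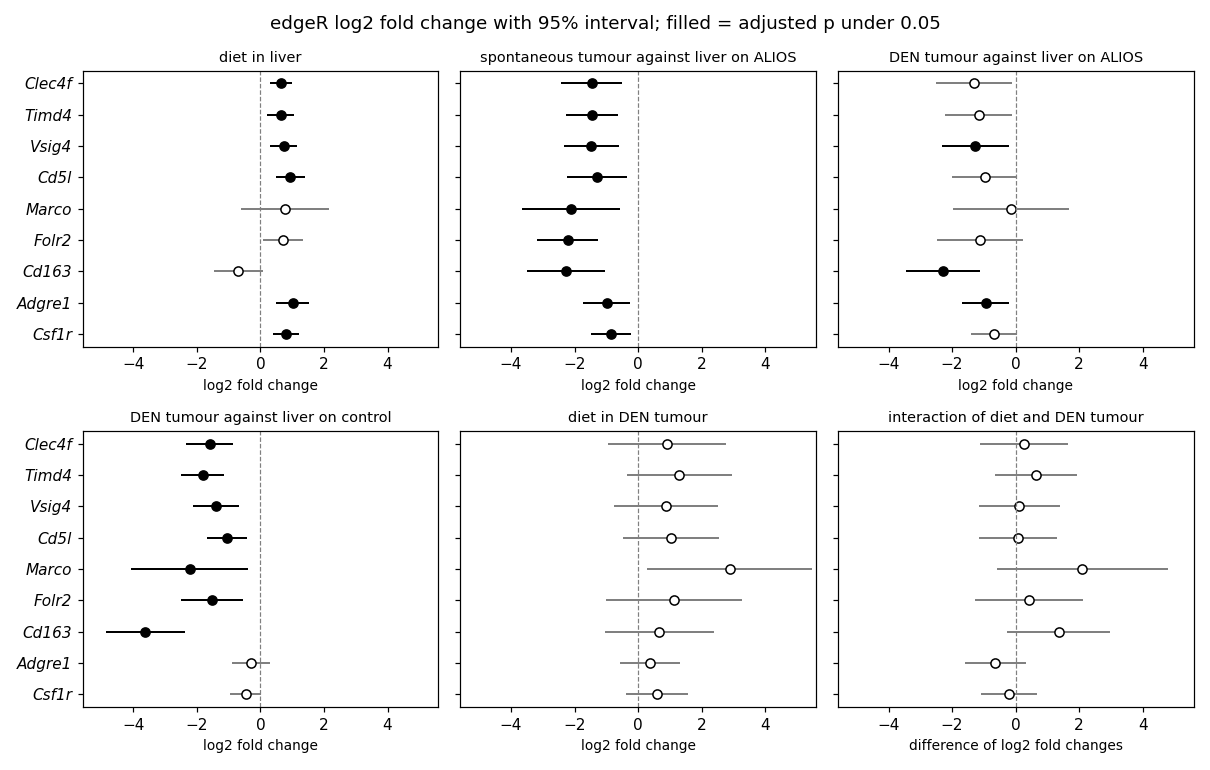
Log2 fold change of each gene (horizontal axis) in 6 comparisons, with its 95% interval from edgeR. Filled points have an adjusted p under 0.05. Diet raised 6 genes in liver, spontaneous tumours had all 9 lower than ALIOS diet livers, and neither the diet comparison within DEN tumours nor the interaction had a filled point.

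The second question was whether resident macrophage genes differed between tumours and non-tumour livers of the same diet, compared as unpaired groups. All 9 genes fell in spontaneous tumours on the ALIOS diet relative to ALIOS diet livers, by between 1.80-fold for Csf1r and 4.81-fold for Cd163. Over all genes tested, 25.9% were called lower (3675 of 14183), so a fall was common in these tumours. The median log2 fold change was -1.47 over the members and 0.01 over all genes. The fall was smaller for the receptors of most macrophages, Adgre1 and Csf1r, than for the other 7, but the difference between members was not tested.

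Cd163 fell from a median of 1.76 CPM (range 0.66 to 8.44) in ALIOS diet livers to 0.256 CPM (range 0.0317 to 3.49) in tumours. Its log2 fold change was -2.27 ± 0.58 (adjusted p = 0.00219), and 10 of 12 tumours lay below every ALIOS diet liver. Folr2 fell from 1.44 CPM (range 0.433 to 2.92) to 0.192 CPM (range 0 to 1.12), a log2 fold change of -2.22 ± 0.45 (adjusted p = 0.000244). All 12 tumours lay below the liver median for Folr2. T8 held no Folr2 or Marco read, which allows up to 0.1 CPM by counting error alone. Marco fell from 2.54 CPM (range 1.23 to 34.3) to 0.567 CPM (range 0 to 4.81), a log2 fold change of -2.12 ± 0.73 (adjusted p = 0.0185). That call rests on N19, without which the log2 fold change was -1.19 (adjusted p = 0.131), and DESeq2 did not make it (-1.13, adjusted p = 0.113).

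The genes closest to specific for Kupffer cells fell by similar amounts. Clec4f fell from 124.5 CPM (range 84.5 to 208.6) to 24.9 CPM (range 6.44 to 137.7), with a log2 fold change of -1.47 ± 0.45 (adjusted p = 0.0093). Timd4 fell from 12.5 CPM (range 7.56 to 32.4) to 3.18 CPM (range 1.10 to 14.1), with a log2 fold change of -1.44 ± 0.39 (adjusted p = 0.00316). For both, 9 of 12 tumours lay below every ALIOS diet liver. Vsig4 fell from 34.1 CPM (range 20.7 to 71.8) to 7.11 CPM (range 1.84 to 32.9), with a log2 fold change of -1.47 ± 0.41 (adjusted p = 0.00409). Cd5l fell from 150.1 CPM (range 87.5 to 395.0) to 41.1 CPM (range 7.08 to 188.7), with a log2 fold change of -1.29 ± 0.44 (adjusted p = 0.0172). All 12 tumours were below the liver median for Vsig4 and 9 of 12 for Cd5l. The Cd5l call was lost with T1 included (adjusted p = 0.0528).

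Adgre1 fell from a median of 17.3 to 8.73 CPM, a log2 fold change of -0.99 ± 0.34 (adjusted p = 0.0182), and lost its call without N19 (-0.76, adjusted p = 0.0532). Csf1r fell from a median of 47.4 to 24.5 CPM, a log2 fold change of -0.85 ± 0.29 (adjusted p = 0.0184). For each of these 2 genes, 6 of 12 tumours lay below every ALIOS diet liver, and 10 of 12 lay below the liver median. The single spontaneous tumour on the control diet, T7, lay below every control diet liver for Clec4f (35.03 CPM), Timd4 (3.30 CPM), Cd5l (39.9 CPM), Cd163 (0.869 CPM) and Csf1r (18.1 CPM). With 1 library there is no replicate check on T7.

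For most genes, tumours spread over a wider range than livers did. Of the 12 spontaneous tumours, 5 (T4, T8, T9, T10 and T14) had all 9 genes below every ALIOS diet liver. T2 had none, and T3 and T6 had only Cd163. T2 and T6 were also within the range of ALIOS diet livers for the summed lipid-associated macrophage genes (304.2 and 371.7 CPM, against 146.7 to 388.2 CPM in those livers), while the other 10 tumours held at least 486.7 CPM. The study's own clustering of the libraries placed T6 within the non-tumour cluster, near N17 and N19. All 9 genes were still called lower when T2 or T6 was left out. In the 8 DEN tumours on the ALIOS diet, T15, T16 and T27 had all 9 genes below the liver range and T23 had none, with 227.6 CPM of the lipid-associated genes. Clec4f in those 8 tumours ranged from 1.12 CPM in T16 to 160.4 CPM in T23. T24 stood apart in another way, with the highest Marco (29.6 CPM) and Folr2 (2.88 CPM) of all tumours while its Clec4f (14.8 CPM), Timd4 (4.94 CPM) and Vsig4 (15.8 CPM) were below every ALIOS diet liver. T24 was also the highest DEN tumour on this diet for C1qa (156.8 CPM) and Cd68 (56.9 CPM), genes of macrophages in general. No tumour lay above every liver of its diet for any member.

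**Figure D3:**
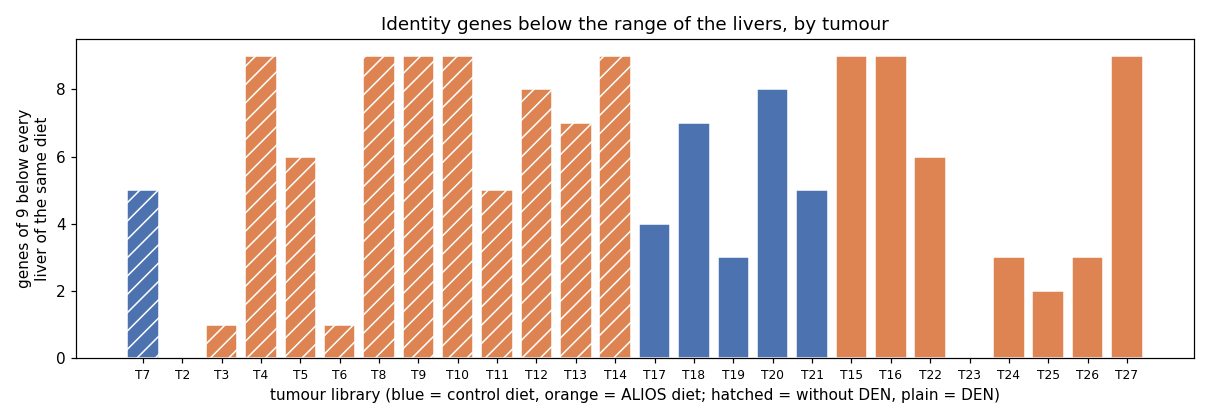
Number of the 9 genes (vertical axis) that lay below every non-tumour liver of the same diet, for each of 26 tumour libraries. Hatched bars are spontaneous and plain bars DEN tumours, with the control diet in blue and the ALIOS diet in orange. 8 tumours had all 9 genes below the livers, and T2 and T23 had none.

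In DEN tumours on the ALIOS diet, 3 of the 9 genes fell relative to the same ALIOS diet livers, against 19.8% of all genes tested (2856 of 14434). These livers also served the comparison with spontaneous tumours, so the comparisons are not independent. Cd163 fell to a median of 0.413 CPM (range 0.118 to 1.47), a log2 fold change of -2.28 ± 0.55 (adjusted p = 0.00206). Vsig4 fell to 12.4 CPM (range 0.478 to 41.0), a log2 fold change of -1.27 ± 0.49 (adjusted p = 0.0395). Adgre1 fell to 8.93 CPM (range 3.38 to 17.7), a log2 fold change of -0.95 ± 0.34 (adjusted p = 0.0278). For Cd163 all 8 tumours lay below the liver median, and 7 of 8 did for Vsig4 and Adgre1. The Vsig4 call was lost without any of N18, N19, T15, T22 and T27, and the Adgre1 call without T27.

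The other 6 genes had negative log2 fold changes that did not pass. They were Clec4f (-1.32, adjusted p = 0.0565), Timd4 (-1.16, adjusted p = 0.0588), Folr2 (-1.12, adjusted p = 0.148), Cd5l (-0.97, adjusted p = 0.101), Csf1r (-0.68, adjusted p = 0.0908) and Marco (-0.14, 95% interval -1.95 to 1.66). The count depended on single tumours and on the tool. It was 7 of 9 without T23 and 7 of 9 in DESeq2, 5 of 9 without T24 and 1 of 9 without T27. Cd163 alone kept its call whichever library was left out. Marco took a positive sign without N19 (0.79).

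In DEN tumours on the control diet, 7 of the 9 genes fell relative to control diet livers, against 24.4% of all genes tested (3601 of 14731). Cd163 fell 12.3-fold, a log2 fold change of -3.62 ± 0.58 (adjusted p = 3.27e-05). Control diet livers held between 1.31 and 9.52 CPM of Cd163 (median 4.59), whereas T17, T18, T19, T20 and T21 held 0.0329, 0.0297, 0.421, 0.787 and 0.551 CPM. The groups did not overlap, and the values of T17 and T18 rest on 1 read each. Timd4 stood at 3.16, 0.652, 4.63, 2.12 and 1.53 CPM in the same 5 tumours, against 6.24 to 11.5 CPM in control diet livers. The groups did not overlap for Timd4 either, with a log2 fold change of -1.82 ± 0.31 (adjusted p = 6.97e-05).

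Clec4f stood at 21.9, 4.86, 48.4, 25.5 and 32.3 CPM in T17 to T21, against 44.5 to 115.7 CPM in control diet livers, a log2 fold change of -1.59 ± 0.34 (adjusted p = 0.000592). Only T19 reached the range of the livers for Clec4f. Vsig4 (-1.40 ± 0.33, adjusted p = 0.00141), Folr2 (-1.52 ± 0.45, adjusted p = 0.00815) and Cd5l (-1.06 ± 0.29, adjusted p = 0.00486) also fell. Marco fell by 2.23 ± 0.86 on the log2 scale (adjusted p = 0.0377), and this call was lost without N6 (-1.40, adjusted p = 0.0575) or without any 1 of T17, T18, T20 and T21. Adgre1 (-0.31, 95% interval -0.88 to 0.26) and Csf1r (-0.47, 95% interval -0.92 to -0.02, adjusted p = 0.0765) did not pass, although Csf1r was called without T17 (-0.64, adjusted p = 0.0265). When all 6 groups were fitted together, 4 of the 7 genes were called, and Cd5l, Marco and Folr2 were not.

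Tumours were then compared with one another. DEN and spontaneous tumours on the ALIOS diet gave 0 of 9 calls, and edgeR called 0% of 14845 genes, with 1079 genes at an unadjusted p under 0.05. DESeq2 called 51 genes higher and 24 lower, with 0 of the 9 members among them, and no member had an unadjusted p under 0.05 in edgeR. The log2 fold changes of Clec4f (0.09, 95% interval -1.38 to 1.57), Timd4 (0.23, -0.99 to 1.44) and Vsig4 (0.15, -1.14 to 1.44) have intervals that span 0 and are wide. Marco had the largest difference, with a log2 fold change of 1.95 (95% interval -0.04 to 3.94), which was 0.37 without T24. Diet within DEN tumours also gave 0 of 9 calls in edgeR, which called 0.0134% of 14944 genes (1273 at an unadjusted p under 0.05), and 0 of 9 in DESeq2. The members' log2 fold changes were all positive, from 0.38 for Adgre1 to 2.89 for Marco, with a median of 0.92. Their intervals were wide, as for Clec4f (0.92, 95% interval -0.90 to 2.75), so the lack of calls does not show that diet had no effect. Marco was the 1 member with an unadjusted p under 0.05. Marco had the largest of these differences, with medians of 0.601 CPM on the control diet and 1.62 CPM on the ALIOS diet and a log2 fold change of 2.89 ± 1.19 (p = 0.0299, adjusted p = 0.511 in edgeR). That size rests on T24, without which it was 1.303 (adjusted p = 0.591). The interaction, the effect of diet in DEN tumours minus that in liver, gave 0 of 9 calls in both tools and 0 of 9 members at an unadjusted p under 0.05, beside 2.27% of 15606 genes called by edgeR. Its widest interval was that of Marco, from -0.55 to 4.75 on the log2 scale.

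General macrophage genes moved in both directions in the tumours. Of all genes tested, 26.9% were called higher in spontaneous tumours. The share was 27.7% in DEN tumours on the ALIOS diet and 27.3% in those on the control diet. The shares called lower were 25.9%, 19.8% and 24.4%, in the same order. Of the 16, 2 rose and 5 fell in spontaneous tumours, 2 rose and 0 fell in DEN tumours on the ALIOS diet, and 3 rose and 1 fell in DEN tumours on the control diet. Cd14, a lipopolysaccharide co-receptor that hepatocytes can also express, rose in all 3 comparisons (log2 fold changes 2.56, 2.69 and 3.52), as did Mpeg1 (0.69, 1.08 and 1.62), a pore-forming protein of macrophages. Complement C1qa, C1qb and C1qc fell in spontaneous tumours (-0.86, -0.81 and -0.88) and did not pass in either DEN comparison. The summed level of the 16 genes ranged from 462.5 to 1239 CPM in ALIOS diet livers and from 410.1 to 1404 CPM in spontaneous tumours, while that of the 9 members ranged from 241.3 to 891.1 CPM and from 28.3 to 445.8 CPM. The sum of the 16 includes Cd14, and their median log2 fold change in spontaneous tumours was -0.55, against -1.47 over the members.

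The members were therefore set against C1q in the same library, as log2 CPM minus the mean log2 CPM of C1qa, C1qb and C1qc, which resident and recruited macrophages both make. On this scale the difference between ALIOS and control diet livers in the group medians lay between -0.47 and 0.07 for 8 of the 9 members. Cd163 was the exception at -1.88, and 5 of 11 ALIOS diet livers lay below every control diet liver. In spontaneous tumours the medians were lower than in ALIOS diet livers by 1.25 for Clec4f, 0.63 for Timd4, 0.64 for Vsig4, 0.54 for Cd5l, 1.28 for Folr2, 1.08 for Marco and 1.37 for Cd163. Adgre1 and Csf1r differed by 0.06 each. These are descriptions of log2 differences and carry no test.

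DEN tumours showed a like pattern for most members. On the ALIOS diet the difference of medians was -1.13 for Clec4f, -0.92 for Timd4 and -0.77 for Vsig4, against 0.31 for Adgre1 and 0.13 for Csf1r. For the first 3, 4, 5 and 6 of 8 tumours lay below every ALIOS diet liver. On the control diet the difference was -0.90, -1.63 and -0.82 for the first 3, against 0.26 for Adgre1 and -0.15 for Csf1r. All 5 tumours lay below every control diet liver for Timd4, but only 2 of 5 for Clec4f and 1 of 5 for Vsig4. Marco on the ALIOS diet, at -0.08, was an exception. With Cd68 in place of C1q the differences of Adgre1 and Csf1r in tumours lay between -0.65 and -0.30, while those of Clec4f lay between -1.74 and -1.57.

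**Figure D4:**
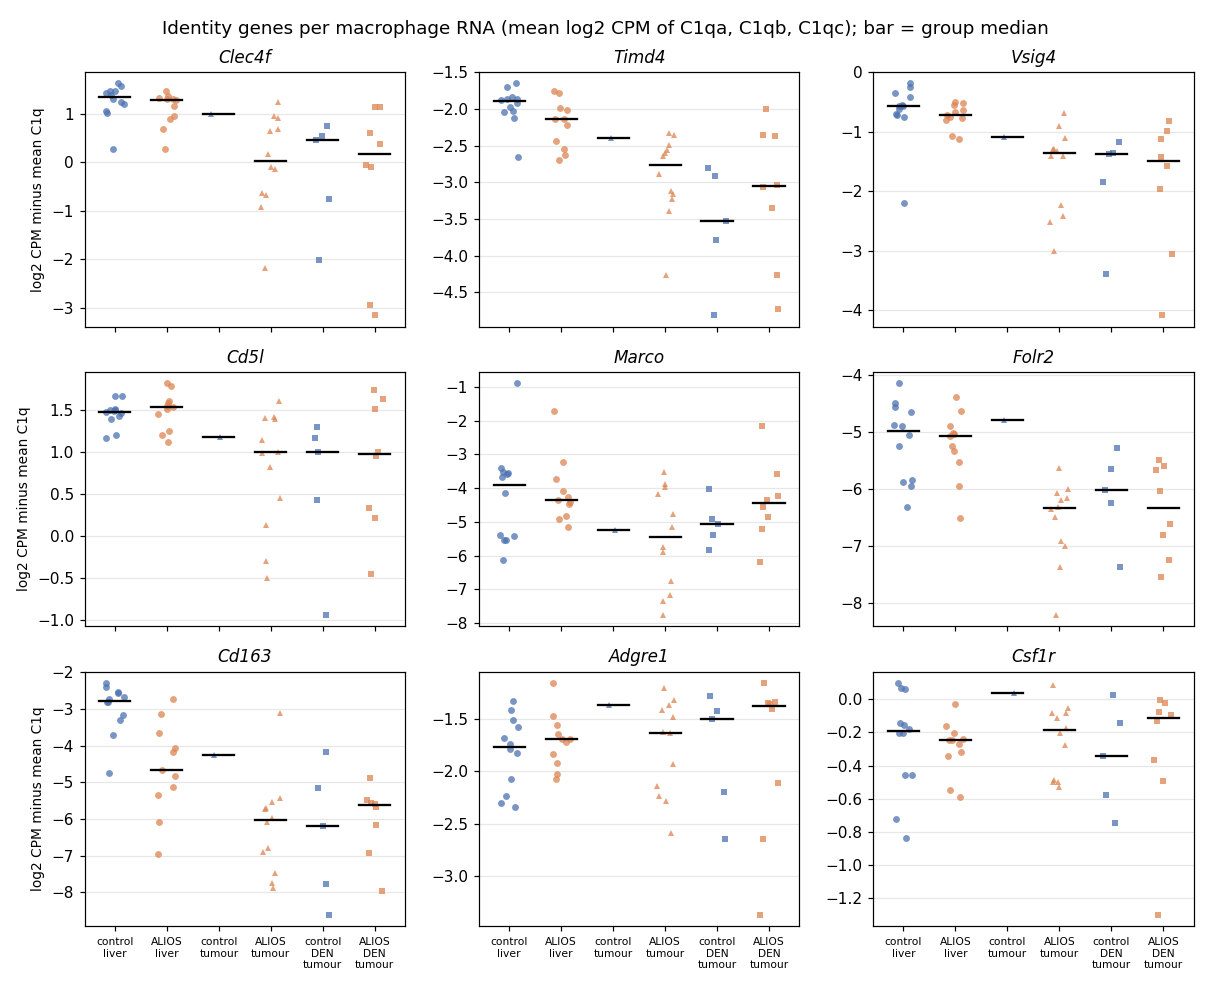
Log2 CPM of each gene minus the mean log2 CPM of C1qa, C1qb and C1qc in the same library (vertical axis), by group. Each point is a library and each bar the group median, with symbols by tissue and colours by diet as in the plot of levels. The medians of Clec4f, Timd4 and Vsig4 are lower in tumours than in livers of their diet on this scale. Leaving out T7, the medians of Adgre1 and Csf1r differ from those of the livers by at most 0.31. Adgre1 in T7 is at -1.37, against a control diet liver median of -1.76.

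Other genes of the Kupffer cell programme were taken from lists. Of 8 transcription factors, 4 fell in spontaneous tumours, 3 in DEN tumours on the ALIOS diet and 3 in DEN tumours on the control diet. These counts and those below stand beside 25.9%, 19.8% and 24.4% of all genes called lower, in that order. The shares called higher were 26.9%, 27.7% and 27.3%. Nr1h3, which encodes the nuclear receptor LXR alpha and is also active in hepatocytes, fell in all 3 (-0.31, -0.38 and -0.35). 1 factor rose, Irf8 in DEN tumours on the ALIOS diet (0.73). The 12 other Kupffer enriched genes were mixed. In spontaneous tumours 2 rose and 5 fell of 11 tested. Of all 12 tested in DEN tumours, 1 rose and 2 fell on the ALIOS diet, and 3 rose and 5 fell on the control diet. Slc40a1, the iron exporter ferroportin, fell in all 3 comparisons (-0.88, -0.80 and -0.98). Fcna, the ficolin of Kupffer cells, fell in spontaneous tumours (-1.51) and in DEN tumours on the control diet (-2.12), and stood at -0.89 (adjusted p = 0.0953) in DEN tumours on the ALIOS diet. Lgmn, a lysosomal protease, rose in all 3 (0.63, 0.74 and 1.41).

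Of 8 niche signals, 4 rose and 1 fell in spontaneous tumours and in DEN tumours on the ALIOS diet. In DEN tumours on the control diet 5 rose and 2 fell. Gdf2, which encodes BMP9, fell in all 3 tumour comparisons (-1.15, -1.61 and -1.26). Bmp10 fell in DEN tumours on the control diet (-1.60). Dll4, a Notch ligand, rose in all 3 (0.98, 0.61 and 1.31), and so did its receptor Notch1 (0.82, 0.80 and 1.48). Csf1 fell in spontaneous tumours (-0.41, adjusted p = 0.0359) and did not pass in DEN tumours.

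Il34 was the ligand whose levels depended most on the group. Its medians were 1.06 CPM in control diet livers, 1.82 CPM in ALIOS diet livers, 1.19 CPM in spontaneous tumours on the ALIOS diet, 2.11 CPM in DEN tumours on the control diet and 0.952 CPM in DEN tumours on the ALIOS diet. It fell in DEN tumours relative to liver on the ALIOS diet (-0.86, adjusted p = 0.0159) and rose in them on the control diet (0.78, adjusted p = 0.00908). The difference between the diets was itself tested and gave an interaction of -1.64 ± 0.37 (adjusted p = 0.0151).

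Genes of other macrophage states and cell types moved in the tumours as well. The counts below stand beside 26.9%, 27.7% and 27.3% of all genes called higher in the 3 comparisons, in the same order. The shares called lower were 25.9%, 19.8% and 24.4%. Of 8 lipid-associated macrophage genes, 4 rose in spontaneous tumours, 5 in DEN tumours on the ALIOS diet and 8 in DEN tumours on the control diet, and none fell. Among those that rose in all 3 were Cd63 (3.90, 3.83 and 5.63), Lpl (2.06, 2.53 and 2.58) and Cd9 (1.56, 1.98 and 1.39), which other cells can also express. Of the monocyte and recruited macrophage genes, 0 of 10 were called in spontaneous tumours, 1 of 10 in DEN tumours on the ALIOS diet (F13a1, 2.67, which was -0.28 without T24) and 5 of 10, all higher, in DEN tumours on the control diet. Of the 8 hepatocyte markers, 2 rose in each of the 3 comparisons, Alb and Apoa1, and 6, 5 and 4 fell, Cps1 among them each time. Sinusoidal endothelial Clec4g and Dnase1l3 fell and Pecam1 and Lyve1 rose in all 3. Of 8 stellate cell genes, 1 rose and 3 fell in spontaneous tumours, 2 rose and 2 fell in DEN tumours on the ALIOS diet, and 3 rose and 4 fell in DEN tumours on the control diet. The dendritic cell list had 2, 1 and 1 genes higher, the T cell list had 1, 0 and 3 higher and 1, 0 and 1 lower, and the neutrophil and B cell lists had none called. The summed hepatocyte markers had a median of 111400 CPM in ALIOS diet livers and 177400 CPM in spontaneous tumours, although the median log2 fold change over the 8 genes was -0.88, since Alb and Apoa1 rose and the other 6 fell. The part of these cell types in the members' fall was not tested.

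The members moved together from library to library. Correlations were taken over log2 CPM after the mean of each group was subtracted, for 36 pairs of genes in each tissue, with permutation p-values adjusted over the 36. In 25 tumours, Pearson's r was positive for all 36 pairs, with a median of 0.808, and 35 passed. In 23 livers the median was 0.619, 34 pairs were positive and 23 passed. The tissues were not tested against each other. All genes of a library share its depth and its macrophage content.

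In tumours, Timd4 and Vsig4 were the closest pair (r = 0.972, Spearman's rho = 0.977, permutation p = 1e-05 for each, the smallest that 100000 resamples can give, adjusted p = 1.8e-05 and 2.12e-05). Without the 2 tumours farthest from the median of Timd4, T16 and T23, r was 0.966. Vsig4 and Cd5l followed (r = 0.967, rho = 0.985, permutation p = 1e-05 for each, adjusted p = 1.8e-05 and 2.12e-05, r = 0.985 without T8 and T16). Cd163 was the loosest member, with r between 0.283 and 0.642 against the other 8. Its correlation with Adgre1 (r = 0.283, rho = 0.208, permutation p = 0.189 and 0.332, adjusted p = 0.189 and 0.332, r = 0.215 without T2 and T5) was the pair that did not pass.

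In livers, the closest pair was Adgre1 and Csf1r (r = 0.964, rho = 0.916, permutation p = 1e-05 for each, adjusted p = 6e-05 and 0.00012, r = 0.942 without N10 and N19). Clec4f and Vsig4 were also close (r = 0.903, rho = 0.826, permutation p = 1e-05 and 3e-05, adjusted p = 6e-05 and 0.000216, r = 0.855 without N6 and N19). Cd163 had a median r of 0.0946 with the other 8 and passed only with Clec4f and Folr2. With Clec4f it had r = 0.596 and rho = 0.605 (permutation p = 0.00366 and 0.00344, adjusted p = 0.00659 and 0.00652), and r = 0.648 without N6 and N19. With Folr2 it had r = 0.458 and rho = 0.447 (permutation p = 0.0299 and 0.0326, adjusted p = 0.0469 and 0.0488). Without N7 and N16, r was 0.373, which was not tested. Timd4 and Vsig4, the closest pair in tumours, had r = 0.561 in livers (rho = 0.659, permutation p = 0.00574 and 0.00105, adjusted p = 0.00984 and 0.00252). For this pair r was 0.284 without N13 and N19, which was not tested. Marco and Vsig4 had r = 0.149 (rho = 0.472, permutation p = 0.509 and 0.0209, adjusted p = 0.592 and 0.0327), and r = 0.536 without N6 and N19. N6 was the control diet liver with the highest Marco and the lowest Clec4f and Vsig4.

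**Figure D5:**
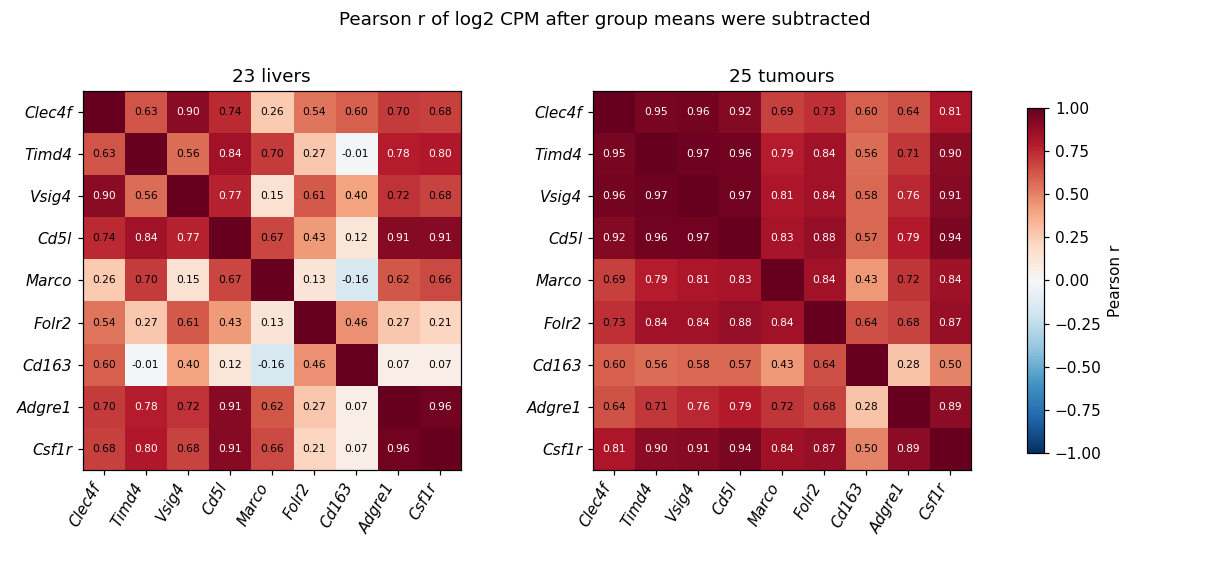
Pearson's r between each pair of genes across 23 livers (left) and 25 tumours (right), from log2 CPM after group means were subtracted. Colour gives r from -1 to 1 and the number in each cell is r. All pairs are positive in tumours, and the Cd163 row is the palest in both tissues.

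The genes whose pattern across the 23 livers was most like that of each member were found among 13723 genes by Pearson's r of log2 CPM after diet means were subtracted, as a description with no test. Cd5l was most like Sdc3 (0.966), Cfp (0.964) and C1qa (0.935). Adgre1 was most like Clec4a1 (0.947), Soat1 (0.945) and Nckap1l (0.925), and Csf1r most like Soat1 (0.941), Nckap1l (0.934) and Cybb (0.93). Vsig4 (0.934) and Clec4f (0.868) shared Lilra5 as the most alike gene, while Timd4 was most like Cfp (0.895). Marco was most like Ncf1 (0.879), Fpr2 (0.874) and Fgr (0.862), which encode a subunit of the phagocyte oxidase, a formyl peptide receptor and a kinase of myeloid cells. Folr2 (0.684 with Tmem159) and Cd163 (0.705 with Nrn1) had no gene as close.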

How the data were processed

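Per the labels and the study's methods, total RNA was made into stranded mRNA libraries, aligned with STAR to mm10 and counted per gene with HTSeq on exons of Gencode M6. Tool versions and the strand option are not given in the sources used here. The authors deposited raw counts per gene, with 1 column for each of 50 libraries and 0 columns that matched no label. Counts were tested as deposited with edgeR 4.0.16 in R 4.3.3 (filterByExpr, TMM, glmQLFit and glmQLFTest), with only the groups compared in each of 7 fits and Benjamini-Hochberg adjustment over all genes tested. The scripts were tested on simulated data.

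All 9 members passed the filter in every comparison. Levels are CPM, and log2 CPM uses a prior count of 2. Correlations used 100000 resamples within groups (scipy 1.17.1). The most alike pair of libraries in a group differed by a chi-square of 12.0 per gene, so none was counted as a duplicate. The floor for a count of 0 is 3 reads and, like all depth limits, covers counting error only.

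The members and the 16 gene lists were chosen with earlier results of these data known. Named genes were the members, the CSF1R ligands, Cd68 and C1q, up to 2 called genes per list, direction and comparison with the smallest p (given in the other comparisons too), and the 3 genes most like each member. Alternatives were DESeq2 1.42.0, other size factors, no filter on low counts, all groups fitted together, T1 included, T24 left out and each library left out. Leaving out T23, or N6 and N19, was added after the data were seen. T1 was left out of all other fits. The values of 1 listed gene are not reported here.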

Additional observations from a re-analysis of the deposited data

Results flagged for a closer look

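Folr2 in T18, a DEN tumour on the control diet, lay apart from the other 4 tumours of its group, at -3.05 log2 CPM (2 reads). It was the 1 value that stood apart in 18 searches over the members in the DEN tumour groups, where chance gives 0.9.

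The effect of diet in DEN tumours differed from that in liver for 3 genes named from the lists, all by the interaction test in edgeR. For Il34, a CSF1R ligand, the difference in log2 fold change was -1.64 (adjusted p = 0.0151), with 0.80 in liver and -0.83 in DEN tumours. For Cd63, a tetraspanin of lysosomes, it was -1.79 (adjusted p = 0.0395), with 1.14 in liver and -0.64 in DEN tumours. For Itgax, the integrin CD11c, it was -3.02 (adjusted p = 0.0182), with 2.59 in liver and -0.44 in DEN tumours. None of these 3 genes passed the test of diet within DEN tumours.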

How the results depend on the processing

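No paired analysis was possible because livers and tumours are numbered separately and the labels do not tie a tumour to a liver, so the groups compared share no replicate number. Of 130 alternatives to the 25 member results that were called, not counting single libraries left out, 118 kept direction and call, 12 lost the call and 0 reversed. The number of members higher with diet in liver was 0 instead of 6 with all groups fitted together. The number lower in DEN tumours on the ALIOS diet was 7 instead of 3 in DESeq2, 5 with RLE size factors, 5 with all groups together, 5 without T24 and 7 without T23, and ranged from 1 to 7 with single libraries left out. The number lower in DEN tumours on the control diet was 4 instead of 7 with all groups together. The causes were not tested. Depth limits the levels of Marco, Folr2 and Cd163, whose lowest tumours held 0, 0 and 1 reads.

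Log2 fold changes that turned sign were not called in either form unless stated. With single libraries left out, Marco ranged from -0.17 (without N19) to 1.60 with diet in liver and from -1.69 (without T24) to 0.79 in DEN tumours on the ALIOS diet. In the latter it was 0.79 without N19, 0.0235 without T15, 0.0306 without T16, 0.0092 without T22 and 0.0382 without T27. With T1 included, Il34 turned to 0.69 in spontaneous tumours. In DEN tumours on the ALIOS diet, F13a1, called in the main test, turned to -0.31 in DESeq2 and -0.28 without T24. Cd68 turned to -0.0189 in DESeq2, -0.016 with RLE size factors, -0.0224 with no filter, -0.0323 with all groups together, -0.0131 without T23 and -0.70 without T24, the last of which was called (adjusted p = 0.0429).

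Between DEN and spontaneous tumours, Adgre1 turned to 0.00196 with no filter and 0.0682 with T1, and Cd163 to 0.0292 with T1. Without T24, Csf1r turned to -0.0452, Cd68 to -0.22, C1qb to -0.10, C1qa to -0.12 and C1qc to -0.0503. Without T23, Clec4f turned to -0.45, Timd4 to -0.28, Vsig4 to -0.27, Cd5l to -0.14 and Csf1r to -0.0622. For diet in DEN tumours, Csf1 turned to -0.12 and Cd68 to -0.21 without T24, and Csf1 to -0.0254 without T23. For the interaction, Folr2 turned to -0.42 and C1qa to -0.50 without T24. Clec4f turned to -0.29, Vsig4 to -0.30, Cd5l to -0.33 and C1qa to -0.0938 without T23, and with single libraries left out, Clec4f ranged from -0.00805 (without T18) to 0.60 (without T19), Vsig4 from -0.13 to 0.40 and Cd5l from -0.17 to 0.33 without the same tumours. Without N6 and N19, the liver correlations of Cd163 turned to 0.25 with Timd4 and 0.18 with Marco.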
